A study of Mus musculus with 12 samples.

Results

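Tcf7, Lef1, Bcl11b, Satb1, Tcf3, Tcf12 and Id3 encode the core transcription regulators of thymocyte identity, and their RNA was measured in thymic T-cell lymphomas that had or had not shrunk after p53 was switched back on. The 7 genes were taken by symbol from a count table of 37991 genes, and all 7 were found and passed the filter on low counts that left 18612 genes. There were 4 non-responder and 8 responder tumours, 1 RNA-seq library each. All mice were C57BL/6 with the genotype p53neo/R172H;R26CreER/GNZ and all received weekly tamoxifen by intraperitoneal injection, which activates the Cre recombinase that reactivates wild-type p53. The groups therefore share the labelled genotype and the treatment, and differ in the response label. That label was read from magnetic resonance imaging (MRI) as growth or shrinkage. Each sample is tumour tissue frozen after the last scan, and no untreated tumour stands beside them. The labels give neither age nor batch. Replicate numbers only name tumours.

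In a developing T cell, Notch signalling turns on Tcf7, whose product TCF1 is an HMG-box factor that binds the same DNA motif as its relative LEF1 and works with beta-catenin or with the Groucho/TLE corepressors. BCL11B, a zinc-finger protein, closes off other blood lineages at commitment, and SATB1 organises chromatin in cells that carry both CD4 and CD8. The E proteins E2A (Tcf3) and HEB (Tcf12) are basic helix-loop-helix factors that bind E-boxes as dimers and drive receptor rearrangement, while ID3, which has no DNA-binding basic region, pairs with them and keeps them off DNA after signals from the pre-T-cell receptor or the T-cell receptor.

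The table held 20796860 to 24393524 counts per non-responder library and 23808086 to 30265753 per responder library. All 14 T-cell defining markers (CD3 chains, Lck, Thy1, receptor constant genes and others) had counts in every tumour. Their summed level was 2760 to 3860 CPM (counts scaled to a common library total) in non-responders and 1230 to 3470 CPM in responders. Markers of other cells differed between the groups: the mean score of 9 lists of such markers, in log2 CPM, was 1.79 to 2.33 in non-responders and 2.26 to 5.40 in responders. All 10 B-cell, neutrophil, endothelial, adipocyte and muscle markers had a lower mean level in non-responders, as did 9 of 9 erythroid, 10 of 12 thymic epithelial, 8 of 10 macrophage and 6 of 10 fibroblast markers. In bulk tissue, fewer cells of a type and less RNA per cell cannot be told apart.

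The start regions of the 7 genes were read for the motifs that these factors are known to bind. RefSeq (GRCm38.p6) lists 17 windows for them, each running from 250 bases before to 50 bases after a start, and a few of them overlap. The letters CTTTGA (the TCF/LEF core, either strand) occurred in 2 of the 17 windows and in 16% of 32851 windows of the same length over all genes. The E-box CAGCTG, which reads the same on both strands, occurred in 4 of the 17 windows, against 16.3% of all windows, and CAGGTG (either strand) in 4 of 17, against 20.2%. No matches of different motifs overlapped in these windows. Lef1 is shown because 1 of its inner starts held 2 TCF/LEF cores, and 1.73% of all windows hold 2 or more. Bcl11b and Tcf12, whose levels ran close together over the tumours, are also shown, but their matches are of different motifs. Bcl11b ran as close to Tcf3, whose window held no motif. A Tcf7 window with CAGCTG at -159 is not shown. The Lef1 window was not alone in holding a motif more than once. An inner Satb1 window, not shown, held 2 CAGCTG (at -64 and 10) and 1 CAGGTG (at -172). Of all windows, 1.9% hold 2 or more CAGCTG. Capitals mark the motifs, and each sequence reads 5′ to 3′ on the gene's own strand.
Lef1, chr3:131156084-131156209, plus strand: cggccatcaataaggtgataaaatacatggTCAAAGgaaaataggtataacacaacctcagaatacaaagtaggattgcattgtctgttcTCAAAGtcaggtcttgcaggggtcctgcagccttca
Lef1, chr3:131112556-131112621, plus strand: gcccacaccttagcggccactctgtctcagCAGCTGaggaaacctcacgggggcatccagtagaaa
Bcl11b, chr12:108003486-108003515, minus strand: agaggccaagcaCTTTGAagaagtgtgaga
Tcf12, chr9:72112024-72112069, minus strand: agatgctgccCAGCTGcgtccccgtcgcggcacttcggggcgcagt
The Lef1 cores began 180 and 120 bases before that start (-180 and -120), and the Bcl11b core lay at -89, inside an annotated exon. No motif was found in the Id3 window or the Tcf3 window. A match says only that the letters are there, and the gene counts do not tell which start was used.

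Comparing non-responder with responder tumours asks whether these identity factors differ between lymphomas that resist and lymphomas that respond to p53. On group means 6 of the 7 genes were higher in non-responders and Id3 was lower, but none passed the main test. With a surrogate variable or a score of other cells as a covariate, 5 of the 6 turned to lower (Satb1 did not). The surrogate variable was higher in responders 4 to 8 (0.197 to 0.457) than in all other tumours (-0.372 to 0.077). The other-cell score was above all non-responders in every responder but responder 8. Neither fit can therefore fully separate its covariate from the response. The main test was edgeR's quasi-likelihood test on the counts over all 18612 genes, with Benjamini-Hochberg adjustment at 0.05. It called 0 of the 7 genes, beside 0% of all genes tested, and at an unadjusted p under 0.05 it gave 1 of the 7 (Tcf3), beside 23.8% of all genes. The median log2 fold change, non-responder minus responder, was 0.71 over the 7 genes and -0.02 over all genes tested. DESeq2 also called 0 of the 7, beside 13.2% of all genes (2.8% higher and 10.4% lower in non-responders). limma-voom with quality weights called 1 of the 7, Lef1, as higher, beside 8.85% of all genes (4.37% higher and 4.48% lower). For 0 of the 7 were the CPM of the groups free of overlap, beside 2.13% of all genes tested (0.951% higher and 1.18% lower).

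**Figure D1:**
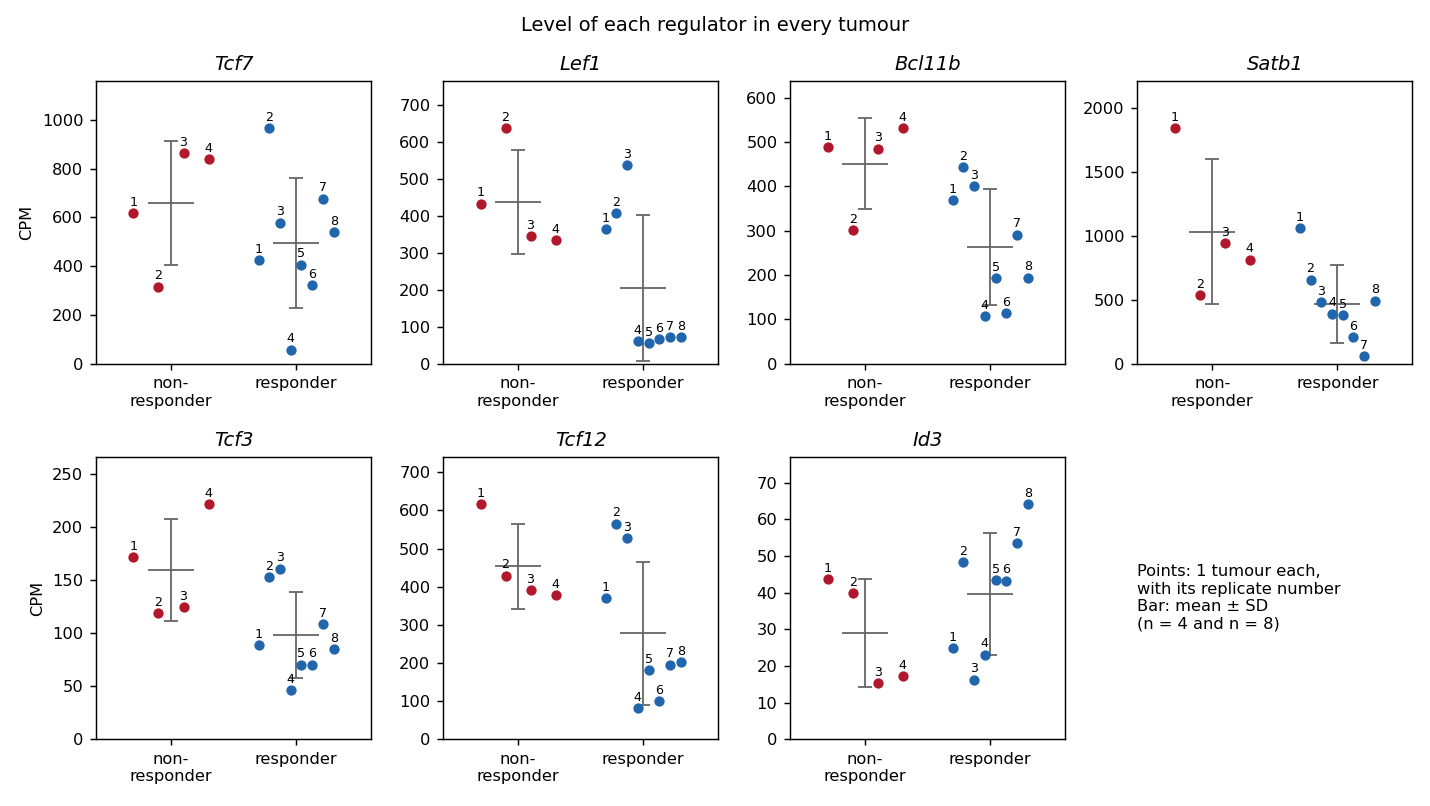
CPM of each of the 7 genes (linear vertical axes from 0) in non-responder tumours (left of each panel, n = 4) and responder tumours (right, n = 8), 1 point per tumour with its replicate number, and the mean ± SD. Lef1 lies between 55.2 and 71.6 CPM in responders 4 to 8 and at 335 CPM or above in the other 7 tumours.

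Lef1 levels fell into a high and a low range with a wide gap between them. Its level was 433, 637, 345 and 335 CPM in non-responders 1 to 4, against a lowest of 55.2, a median of 71.2 and a highest of 536 CPM in responders. Responders 1, 2 and 3, at 365, 407 and 536 CPM, lay within the range of the non-responders, and responders 4 to 8 lay between 55.2 and 71.6 CPM, with no tumour in between. Lef1 averaged 437 ± 140 CPM in non-responders (SD, n = 4) and 204 ± 198 CPM in responders (SD, n = 8). On the log2 scale the difference was 1.10 with an SE of 0.65 (adjusted p = 0.317 in edgeR), and limma-voom with quality weights gave 2.0 with an SE of 0.56 (adjusted p = 0.0461). Its highest tumour stood 11.5 times above its lowest, and the SD of its log2 CPM over the 12 tumours, 1.42, was above that of 94.6% of the 9977 genes with a mean of 10 CPM or more.

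Tcf7 did not follow that divide, although TCF1 and LEF1 bind the same motif. It stood at 619, 316, 865 and 839 CPM in non-responders 1 to 4, against a lowest of 58.1, a median of 482 and a highest of 966 CPM in responders. Responder 4 alone was far below the rest, and 6 of the 8 responders lay within the range of the non-responders. The means were 660 ± 254 CPM in non-responders and 497 ± 267 CPM in responders (SD, n = 4 and 8), a log2 difference of 0.41 with an SE of 0.50 (adjusted p = 0.639 in edgeR). That difference was 0.25 without responder 4, 0.66 without non-responder 2 and 0.62 without responder 2. Scaled to transcript length, the level of Lef1 over that of Tcf7 was 0.283 to 1.43 in non-responders. In responders 5 to 8 that ratio was 0.075 to 0.148, and in responders 1 to 4 it was 0.299 to 0.745. Responder 4 thus had both genes low, and responders 5 to 8 had Lef1 low beside Tcf7 levels of 321 to 677 CPM.

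Bcl11b, the commitment factor, was at 488, 301, 485 and 531 CPM in non-responders 1 to 4, against a lowest of 107, a median of 243 and a highest of 443 CPM in responders. Responders 4 to 8, at 107 to 291 CPM, were all below the lowest non-responder, though responder 7, at 291 CPM, came close to it. The means were 451 ± 103 CPM in non-responders and 264 ± 131 CPM in responders (SD, n = 4 and 8), a log2 difference of 0.77 with an SE of 0.37 (adjusted p = 0.222 in edgeR).

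Satb1, the chromatin organiser, had the widest span of the 7 genes, with its highest tumour 32.6 times above its lowest, although the SD of its log2 CPM (1.28) was below that of Lef1 (1.42). Its level was 1840, 536, 940 and 813 CPM in non-responders 1 to 4, against a lowest of 56.6, a median of 437 and a highest of 1060 CPM in responders. The low extreme was responder 7, which stood at 56.6 CPM when the next lowest tumour, responder 6, stood at 206 CPM. Satb1 averaged 1030 ± 566 CPM in non-responders and 466 ± 302 CPM in responders (SD, n = 4 and 8). The log2 difference was 1.15 with an SE of 0.54 (adjusted p = 0.215 in edgeR), and 0.72 without non-responder 1.

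Both E-protein genes were lower in most responders than in any non-responder. Tcf3 was at 172, 119, 125 and 222 CPM in non-responders 1 to 4, against a lowest of 46.4, a median of 86.9 and a highest of 161 CPM in responders. Tcf12 was at 617, 429, 391 and 378 CPM in the same non-responders, against a lowest of 81.9, a median of 200 and a highest of 565 CPM in responders. Responders 2 and 3 were within the range of the non-responders for both genes, and the other 6 responders were below it for both. Responder 1, at 370 CPM of Tcf12, was just under the lowest non-responder, and responders 4 to 8 were at 203 CPM or below. Tcf3 averaged 160 ± 47.8 CPM in non-responders and 97.9 ± 40.5 CPM in responders, and Tcf12 averaged 454 ± 111 CPM in non-responders and 278 ± 187 CPM in responders (SD, n = 4 and 8). The log2 difference was 0.71 for Tcf3, with an SE of 0.31 and an adjusted p of 0.187 in edgeR, and 0.71 for Tcf12, with an SE of 0.46 and an adjusted p of 0.368.

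Id3, the E-protein inhibitor, leaned the other way. It stood at 43.6, 39.9, 15.4 and 17.2 CPM in non-responders 1 to 4, against a lowest of 16.3, a median of 43.4 and a highest of 64.2 CPM in responders. Responders 2, 7 and 8 were above every non-responder, and the other 5 responders lay within their range. Id3 averaged 29.0 ± 14.8 CPM in non-responders and 39.6 ± 16.6 CPM in responders (SD, n = 4 and 8), a log2 difference of -0.45 with an SE of 0.40 (adjusted p = 0.508 in edgeR). That difference was -0.71 without non-responder 1, -0.22 without non-responder 3 and -0.26 without non-responder 4.

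**Figure D2:**
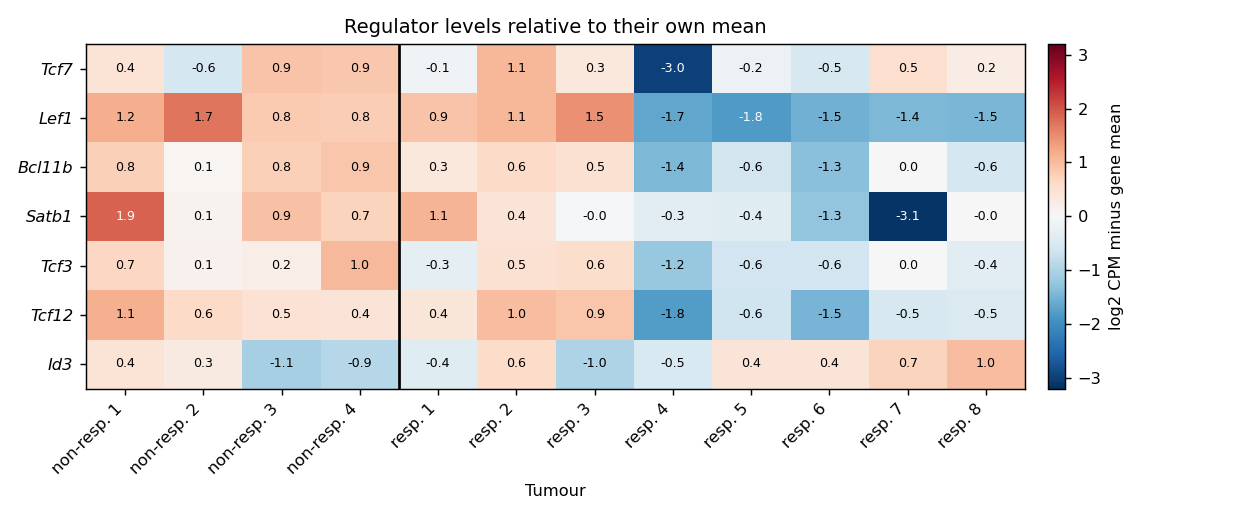
Log2 CPM of each gene (rows) in each tumour (columns, non-responders left of the line) minus that gene's mean over the 12 tumours; red is above and blue below the mean. Lef1 is below its mean in responders 4 to 8 and above it in the other 7 tumours, and Tcf7 is far below its mean in responder 4 only.

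The balance of E proteins to ID3 was compared per length, as CPM per kilobase of the longest GENCODE M21 principal transcript. Summed Tcf3 and Tcf12 stood at 105 to 156 CPM per kb in non-responders, against 28.7 to 141 CPM per kb in responders. Over Id3 that sum gave ratios of 4.58, 3.47, 8.71 and 10 in non-responders 1 to 4. In responders the lowest ratio was 1.2, the median 1.61 and the highest 10.8. Responders 1 to 3 had ratios of 4.58, 3.73 and 10.8, within or just above the range of the non-responders. The 5 others were at 1.2 to 1.63, where E-protein levels were low and, apart from responder 4 with 18.1 CPM per kb, Id3 levels were at least 33.9 CPM per kb. With Id2, another E-protein inhibitor, added to Id3, the ratio was 1.71 to 4.56 in non-responders and 0.242 to 3.78 in responders. The lowest was in responder 4, which had 198 CPM of Id2 and the highest other-cell score (5.40). The next highest Id2 level was 81.9 CPM, in responder 1. In responders 5 to 8 this ratio was 0.597 to 1.03. The part of other cells in the Id2 and Id3 levels was not tested. These ratios are a description, and no test was made on them.

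On the same per-length scale the order of the 7 genes over the 12 tumours was Tcf7 (223 CPM per kb), Satb1 (105), Lef1 (81.0), Tcf12 (53.4), Bcl11b and Tcf3 (40.2 each) and Id3 (28.2). Tcf7 kept first and Id3 last place when the length of all annotated exons was used instead, at 210 and 20.2 CPM per kb. The order of the 5 between them changed with the length used, with Bcl11b at 40.2 CPM per kb and then Satb1 at 34.4. The order among these 5 is thus not settled.

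**Figure D3:**
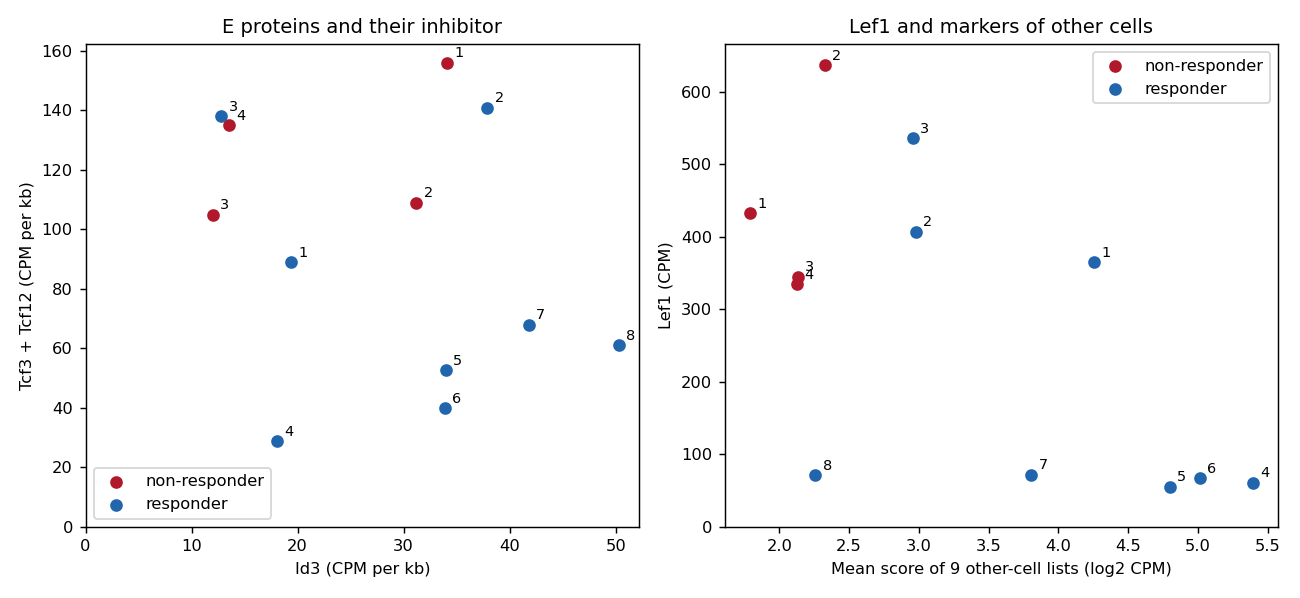
Left, summed Tcf3 and Tcf12 against Id3, both in CPM per kb; right, Lef1 in CPM against the mean score of 9 marker lists of other cell types in log2 CPM; each point is 1 tumour with its replicate number, red for non-responders and blue for responders. Responder 8 has a score of 2.26, inside the 1.79 to 2.33 of non-responders, and 70.9 CPM of Lef1. Responder 4 has the highest score, 5.40, and 61.0 CPM of Lef1.

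Markers of other cells also differed in level among the tumours. Summed B-cell markers were at 21.5 to 85.5 CPM in non-responders and 29.0 to 492 CPM in responders, neutrophil markers at 8.07 to 25.1 CPM in non-responders and 26.1 to 703 CPM in responders, and erythroid markers at 15 to 333 CPM in non-responders and 129 to 2540 CPM in responders. Adipocyte markers were at 89.8 to 127 CPM in non-responders and 98.2 to 2870 CPM in responders, muscle markers at 9.67 to 24.3 CPM in non-responders and 17.2 to 573 CPM in responders, and endothelial markers at 115 to 171 CPM in non-responders and 168 to 663 CPM in responders. The macrophage sum was 519 to 1450 CPM in non-responders and 477 to 1890 CPM in responders, the fibroblast sum 683 to 1470 CPM in non-responders and 329 to 1700 CPM in responders, and the thymic epithelial sum 119 to 334 CPM in non-responders and 142 to 373 CPM in responders. Among these markers and those of killer cells, Elane, Foxn1, Pax1, Lep, Myh7, Mb, Ncr1, Gzmb and Klra8 were at 0 in at least 1 tumour. Of the 14 T-cell markers, 11 had a log2 difference above 0, beside 9023 of all 18612 genes tested. At an unadjusted p under 0.05, 1 of the 14 was higher, Thy1 (440 ± 126 CPM in non-responders, 218 ± 160 CPM in responders), a share close to the 7.73% of all genes. Responder 4, lowest of all tumours for Tcf7, Bcl11b, Tcf3 and Tcf12, had the highest other-cell score (5.40) and the lowest summed T-cell markers (1230 CPM). Responder 8 had a score of 2.26, within the range of the non-responders, with 70.9 CPM of Lef1 and 203 CPM of Tcf12. Responder 1 had a score of 4.25, above that of responders 7 and 8, and 365 CPM of Lef1. Set against the summed CPM of Cd3d, Cd3e and Cd3g, Lef1 was at 67.6 to 205 per 100 CPM of CD3 in non-responders, at 75.1 to 145 in responders 1 to 3 and at 15.9 to 32.3 in responders 4 to 8. Tcf7 in responder 4 was at 30.7 per 100 CPM of CD3, when the other 11 tumours were at 102 to 214. On this scale Tcf3 stood at 26.2 to 53.1 in non-responders and 20.2 to 35.5 in responders, with 5 of 8 responders within the range of the non-responders and 3 below it, against 2 within and 6 below in CPM. Satb1 stood at 164 to 569 in non-responders and 17.9 to 419 in responders, and responder 4, at 207, was above 3 of the 4 non-responders although 6 of 8 responders were below all of them. Bcl11b was at 96.8 to 151 in non-responders and 43.0 to 145 in responders, with 7 of 8 responders below every non-responder. Tcf12 was at 76.2 to 190 in non-responders and 37.9 to 146 in responders, with 5 of 8 below. Id3 was at 3.2 to 13.4 in non-responders and 3.61 to 16.9 in responders, with 3 of 8 above. With the other-cell score as a covariate in edgeR, the log2 fold change was -0.16 for Lef1 (SE 0.90), -0.10 for Bcl11b (SE 0.47), -0.06 for Tcf3 (SE 0.35), -0.51 for Tcf12 (SE 0.54) and -0.73 for Tcf7 (SE 0.63), all turned in sign. Satb1 kept its direction at 0.71 (SE 0.86) and Id3 at -0.82 (SE 0.54). Every responder but responder 8 had a score of 2.96 or above, and the highest non-responder score was 2.33. Score and response thus largely overlap, and this fit cannot fully separate them. The part of other cells in the group difference was not tested beyond this.

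**Figure D4:**
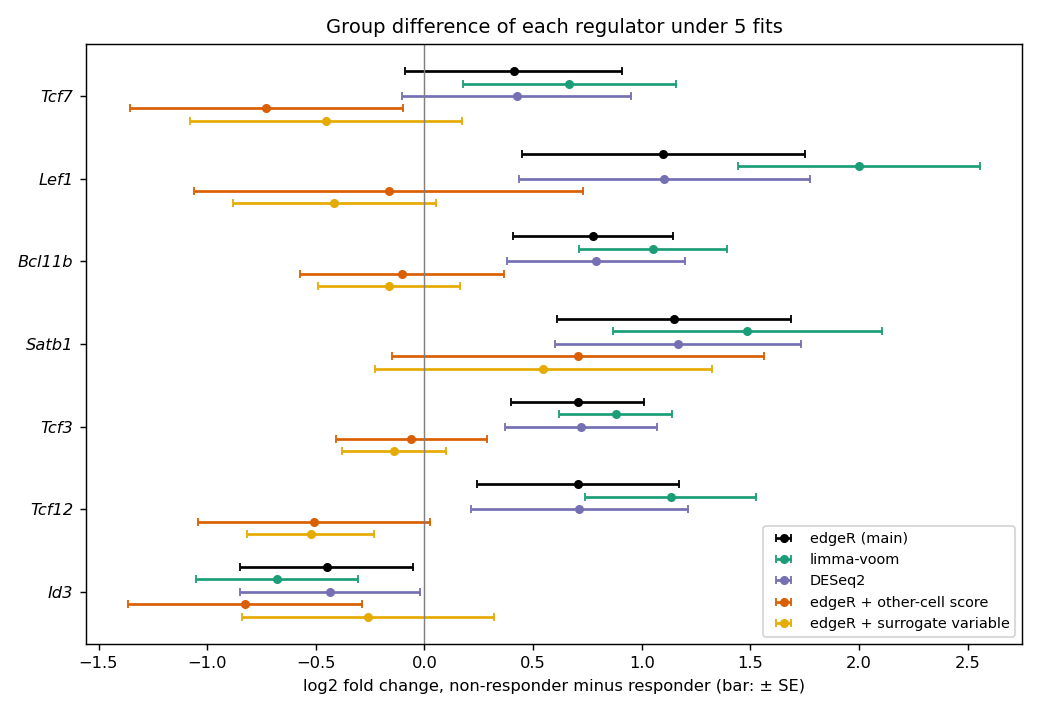
Log2 fold change of each gene, non-responder minus responder, with its SE as a bar, in edgeR with group alone, limma-voom, DESeq2, and edgeR with the other-cell score or 1 surrogate variable as a covariate. Lef1, Bcl11b, Tcf3, Tcf12 and Tcf7 are above 0 in the first 3 fits and below 0 in both fits with a covariate.

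The members differed in how alike their profiles were. Likeness was measured as the root-mean-square difference between mean-centred log2 CPM over the 12 tumours, so that 0 means parallel profiles. Bcl11b lay nearest to Tcf3 (0.34) and Tcf12 (0.35), and Tcf3 and Tcf12 differed by 0.50. Lef1 was nearest to Tcf12 (0.66), Satb1 was 1.0 to 1.61 from the other 6, and Id3 was 1.04 to 1.77 from the other 6. Among 9498 named genes with a mean of 10 CPM or more, the nearest to Bcl11b were Sla2, an adaptor of receptor signalling (0.23), Ezh2, the Polycomb methyltransferase (0.27), and Hnrnpc (0.29). Those nearest to Tcf3 were Tdg, a DNA glycosylase (0.15), Cdca3 (0.19) and the histone chaperone gene Nap1l1 (0.21). Chml (0.25), Neto2 (0.28) and Lman2l (0.33) were nearest to Tcf12, and Bivm (0.41), the kinase gene Dclk2 (0.44) and Lrig1 (0.47) to Lef1. Tcf7 was nearest to Col11a2 (0.46), Galk1 (0.50) and Mns1 (0.50), Id3 to Slc2a4rg-ps (0.35), Bicdl1 (0.36) and Xrcc5 (0.38), and Satb1 to Trp53inp1 (0.62), Tspan6 (0.63) and Dzip1 (0.64).

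Genes that work with these regulators were read from the same edgeR fit, which called 0 of them. Counts at an unadjusted p under 0.05 are given beside 7.73% of all genes tested as higher and 16.1% as lower in non-responders. Of 20 genes of the TCF/LEF family and its beta-catenin and Groucho partners, 1 was higher and 2 lower by that rule. Tle4, a Groucho corepressor gene, averaged 10.6 ± 7.84 CPM in non-responders and 71.9 ± 57.5 CPM in responders (log2 difference -2.76 with an SE of 0.81, adjusted p = 0.117 in edgeR). Tle3, its relative, stood the other way, at 293 ± 31.7 CPM in non-responders and 178 ± 88.7 CPM in responders (0.72 with an SE of 0.30). Tcf7l2, another TCF gene, was at 1.24 ± 0.587 CPM in non-responders and 3.41 ± 1.75 CPM in responders.

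Of 13 tested partners of E and ID proteins (16 listed), 1 was higher and 4 lower at an unadjusted p under 0.05. Hes1, a Notch target and helix-loop-helix repressor gene, was at 36.2 ± 11.6 CPM in non-responders and 11.2 ± 10.6 CPM in responders (log2 difference 1.70 with an SE of 0.56, adjusted p = 0.121 in edgeR). Tal1, a leukaemia factor that pairs with E proteins, was at 0.421 ± 0.173 CPM in non-responders and 3.38 ± 3.65 CPM in responders, and Id4 at 0.276 ± 0.179 CPM in non-responders and 2.60 ± 2.46 CPM in responders. In responders 4 to 6 Tal1 was at 3.8, 8.3 and 9.72 CPM, where summed erythroid markers were at 2180, 2440 and 2540 CPM. In responders 2 and 8 Tal1 was at 0.411 and 0.594 CPM, with erythroid sums of 798 and 129 CPM. The part of other cells in the Tal1 level was not tested. Tal1 also counts among the genes restrained by BCL11B given below. Among relatives of BCL11B and SATB1 and their NuRD partners, 0 of 17 were higher and 4 lower by that rule. They included Bcl11a, the close relative of Bcl11b (1.54 ± 1.15 CPM in non-responders, 9.26 ± 9.60 CPM in responders), and Nr2f1 (0.352 ± 0.170 CPM in non-responders, 1.41 ± 0.992 CPM in responders). Of 19 other tested factors of thymocyte identity, 1 was higher and 4 lower. Gfi1, a repressor gene of early T cells, was at 90.3 ± 21.3 CPM in non-responders and 42.0 ± 23.7 CPM in responders. Sox13 was at 6.92 ± 1.23 CPM in non-responders and 21.1 ± 12.4 CPM in responders, and Zfp36l1 at 7.65 ± 2.76 CPM in non-responders and 18.4 ± 8.15 CPM in responders.

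Genes known to be driven by E proteins or TCF1 in cortical thymocytes leaned with Lef1, Tcf3 and Tcf12. Of 20 such genes, 18 had a log2 fold change above 0, with a median of 0.92. At an unadjusted p under 0.05, 3 were higher and 0 lower. Of all 18612 genes tested, 9023 were above 0, with a median of -0.02, and 7.73% were higher and 16.1% lower by that rule. The lists were chosen with earlier results of these data known. The 3 were Notch1 (3260 ± 2700 CPM in non-responders, 584 ± 736 CPM in responders), Notch3 (177 ± 47.0 CPM in non-responders, 70.7 ± 66.5 CPM in responders) and the chemokine receptor gene Cxcr4. Notch1 was at 777 to 1900 CPM in responders 1 to 3 and at 73.3 to 128 CPM in responders 4 to 8. Notch3 was at 71.2 to 202 CPM in responders 1 to 3 and at 16.1 to 41.9 CPM in responders 4 to 8. Cxcr4 was at 318, 329, 262 and 286 CPM in non-responders 1 to 4 and at 55.3 to 255 CPM in responders. The groups were thus apart, as they were in this direction for 0.951% of all genes tested. Its log2 difference was 0.80 with an SE of 0.37 (adjusted p = 0.209 in edgeR). Rag1, which cuts the receptor genes for rearrangement, was at 168 to 1750 CPM in non-responders, at 894 to 1260 CPM in responders 1 to 3 and at 0.409 to 2.90 CPM in responders 4 to 8, the same tumours in which Lef1 was low.

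Genes that these factors are known to hold down leaned the other way. Of 18 tested genes restrained by BCL11B (19 listed), 17 had a log2 fold change below 0, with a median of -0.98. At an unadjusted p under 0.05, 10 were lower and 0 higher. Of all 18612 genes tested, 9589 were below 0 and 16.1% were lower by that rule. Killer-cell receptor genes led them, with Klrk1 at 0.834 ± 0.413 CPM in non-responders and 10.6 ± 11.6 CPM in responders and Klrd1 at 0.839 ± 0.530 CPM in non-responders and 24.9 ± 44.1 CPM in responders. Of 16 genes restrained by E proteins or raised with ID proteins, 14 were below 0, with a median of -1.94, and 10 were lower and 0 higher by that rule. The interleukin 7 receptor gene Il7r was at 20.2 ± 11.6 CPM in non-responders and 242 ± 270 CPM in responders. Icos was at 15.3 ± 11.2 CPM in non-responders and 147 ± 129 CPM in responders. The egress receptor gene S1pr1 was at 9.66 ± 3.32 CPM in non-responders and 38.5 ± 31.3 CPM in responders. Il7r was at 28.5 to 48.3 CPM in responders 1 to 3 and at 142 to 844 CPM in responders 4 to 8. Icos was at 5.82 to 39.4 CPM in responders 1 to 3 and at 101 to 365 CPM in responders 4 to 8. For S1pr1 these 2 sets of responders overlapped (7.07 to 30.7 CPM and 24.3 to 103 CPM). All 9 tested genes of T-cell receptor signalling that lie upstream of Id3 or beside it were below 0, 4 of them at an unadjusted p under 0.05. Egr3, whose product is known to induce Id3, was at 0.264 ± 0.180 CPM in non-responders and 5.41 ± 5.84 CPM in responders, Cd69 at 3.49 ± 2.51 CPM in non-responders and 16.2 ± 10.2 CPM in responders and Dusp2 at 27.7 ± 10.7 CPM in non-responders and 63.8 ± 41.7 CPM in responders. Killer cells, for which Klrk1 and Klrd1 are also markers, had a lower mean in non-responders for 8 of 10 markers, summing to 98.9 to 166 CPM in non-responders and 31.2 to 450 CPM in responders. Klrd1 (131 CPM), Il7r (844 CPM) and Icos (365 CPM) had their highest level in responder 8, whose other-cell score was 2.26. Klrk1 (35.9 CPM) and S1pr1 (103 CPM) had theirs in responder 4, which had the highest score and 11.1 CPM of Klrd1. That score holds no list of killer-cell markers. The summed killer-cell markers, which include Klrd1 and Klrk1, were at 251 CPM in responder 8. They were lowest in responders 4 to 6, at 89.0, 31.2 and 78.4 CPM. The part of other cells in these lists was not tested.

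The 7 genes lie on separate chromosomes of GRCm38 in GENCODE M21, all protein coding. Tcf7 (ENSMUSG00000000782) spans 52252371 to 52283014 on chromosome 11, Lef1 (ENSMUSG00000027985) 131110471 to 131224356 on chromosome 3, Bcl11b (ENSMUSG00000048251) 107910403 to 108003602 on chromosome 12 and Satb1 (ENSMUSG00000023927) 51736187 to 51833290 on chromosome 17. Tcf3 (ENSMUSG00000020167) spans 80409514 to 80433647 on chromosome 10, Tcf12 (ENSMUSG00000032228) 71842688 to 72111871 on chromosome 9 and Id3 (ENSMUSG00000007872) 136143497 to 136145755 on chromosome 4. Lef1 shares 1208 exonic bases with the antisense gene Gm43352, and Satb1 shares 128 with Gm6934 on the opposite strand and 156 with Gm36931 on its own strand, so reads there are uncertain, the use of strand not being stated.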

How the data were processed

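RNA-seq libraries of 12 thymic lymphomas were compared by response label, 4 non-responder and 8 responder. The authors deposited raw counts per Ensembl gene in 1 table. Per the labels' protocols, mRNA libraries came from a TruSeq kit and were read as paired ends; per the submitters' processing notes, HTSeq and DESeq were used. The notes name NCBIM37 and the labels mm10, so the build of the counts is not settled. For the aligner and the strand setting, nothing is given in those sources. Of the 37991 identifiers, GENCODE M21 (GRCm38) gave 32919 a symbol. Those coordinates only annotate the genes.

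After filterByExpr, 18612 genes were tested, two-sided, by the robust quasi-likelihood test of edgeR 4.0.16 (R 4.3.3), with TMM scaling and group as sole term, with Benjamini-Hochberg adjustment at 0.05. SE came from the F statistic. CPM are counts over the TMM-scaled total; for log2 CPM the prior count was 2. Other settings tried were scaling by RLE or by upper quartile, testing unfiltered genes or those at 1 CPM in 4 libraries, dispersion without the robust option, limma-voom (limma 3.58.1), DESeq2 1.42.0, 1 surrogate variable (sva 3.50.0), the other-cell score, and each tumour left out. The procedure was tested on simulated data. No 2 libraries were repeats: the chi-square per degree of freedom was at least 58.8 over 66 pairs. The p-values set the group difference against the spread between these tumours. Named genes are the 7 members, the 3 genes of lowest p in each related list and, for each member with an SD of log2 CPM of at least 0.5, its 3 nearest genes, leaving out predicted genes and receptor segments; the text also gives Rag1, Id2, Axin2 and Zbtb16, chosen after their values were seen. The members and lists were chosen with earlier results of these data known. A few genes that these rules name are not reported here.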

Additional observations from a re-analysis of the deposited data

How the results depend on the processing

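In every fit with 1 tumour left out, all 7 genes kept their direction and kept an adjusted p above 0.05 (84 of 84 values), and so did 52 of 63 values under the 9 other alternatives. With 1 surrogate variable the log2 fold change turned for Lef1 (-0.41), Bcl11b (-0.16), Tcf3 (-0.14), Tcf12 (-0.52) and Tcf7 (-0.45). With the other-cell score as a covariate it was -0.16, -0.10, -0.06, -0.51 and -0.73 for the same genes. That score was above all non-responders in every responder but responder 8, so its fit cannot fully separate it from the response. The surrogate variable was -0.372 to -0.185 in non-responders and -0.254 to 0.457 in responders, so covariate and response overlap in part. It was -0.254 to 0.077 in responders 1 to 3 and 0.197 to 0.457 in responders 4 to 8. The surrogate variable was thus highest in the tumours in which Lef1 was low, so that fit cannot separate this divide from the response. With limma-voom Lef1 passed (2.0, adjusted p = 0.0461), 1 of the 7 genes; its adjusted p was 0.129 to 0.983 over its other alternatives, leave-one-out fits included, and the cause was not tested. Over all genes edgeR called 0, DESeq2 2462 and limma-voom 1647; with 1 tumour left out edgeR called 0 to 5 (5 without responder 3, 3 without non-responder 1, 1 without non-responder 3). RLE and upper-quartile scaling moved the median log2 fold change of all genes by 0.02 and -0.06. Group means in CPM moved by less than 1 SD under RLE. No paired analysis was possible because the labels give no replicate numbers shared between the groups. The least covered value of the 7 genes was 334 counts, of Id3, so for them counting error is small beside the spread between tumours. Some related genes were far lower, such as Egr3 and Id4 at 0.049 CPM in non-responder 2, and there counting error weighs more.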

Other observations

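Axin2, a feedback inhibitor gene that beta-catenin and TCF factors are known to switch on, was chosen after its values were seen. It stood at 18, 56.2, 48.8 and 40.4 CPM in non-responders 1 to 4, against a lowest of 18.5 and a highest of 204 CPM in responders. The 2 highest tumours were responders 7 and 8, at 168 and 204 CPM, where Lef1 was at 71.6 and 70.9 CPM and Tcf7 at 677 and 541 CPM. Responders 5 and 6, also low in Lef1, were at 77.2 and 60.6 CPM of Axin2, above every non-responder. Responders 1 to 3, which had high Lef1, were at 22.5, 18.5 and 25.6 CPM of Axin2. Responder 4, which had the lowest Tcf7 level, was at 37.6 CPM of Axin2, inside the range of the non-responders.

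Zbtb16, the gene of the innate-like factor PLZF and 1 of the genes restrained by BCL11B, was also chosen after its values were seen. It was at 1.83, 2.45, 26.8 and 3.13 CPM in non-responders 1 to 4. In responders 1 to 3 it was at 1.01 to 9.19 CPM, and in responders 4 to 8 at 331, 336, 377, 30 and 173 CPM. Responder 7, with 30 CPM, was the 1 of these 5 tumours with the highest Bcl11b level (291 CPM) and the lowest Satb1 level (56.6 CPM).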
